A study of Mus musculus with 9 samples.

Results

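RNA from primary cells of the mouse spinal meninges was compared between the segments labelled L and T. Of the 9 libraries in the study, 6 enter the comparison, which are all 3 libraries titled T and all 3 titled L. The other 3 carry the letter C, and they share the estimate of spread in the model and are given as levels beside the others, with no test. The labels name fibroblast as the cell type and spinal cord as the tissue, and describe freshly collected primary cells without treatment, for every library alike. They do not spell out the letters and give no strain, genotype, age or sex. The description of L replicate 3 points to the column of L replicate 2, and each library was therefore taken from the column that carries its title. Nothing in the labels tells if the replicates of a segment were different animals or cultures. The p-values therefore cover only the spread between these libraries, which may be technical. The series asks how fibroblasts of different segments differ, in the context of scar formation after spinal cord injury, and no injured tissue was analysed here.

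The meninges wrap the spinal cord in layers. The outer dura is a tough collagen sheet, the arachnoid below it holds the barrier to the cerebrospinal fluid, and the pia lies on the cord itself and follows its vessels. Fibroblasts build all 3 layers. They secrete collagens and laminins, release and bind BMP, Wnt, FGF, IGF and retinoic acid signals, and carry transporters that set what passes between blood, cerebrospinal fluid and cord. After injury, meningeal and perivascular fibroblasts are known as a source of fibrotic scar matrix.

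Total estimated counts were between 15652558 and 20282559 in the 6 libraries, and 12057 to 12200 genes reached a TPM of 1 (TPM is a transcript abundance corrected for length and scaled to the same total in every library). Of the fibroblast markers, Col1a1 had a mean TPM of 842 ± 65.2 in T and 1164 ± 27.4 in L (± SD, n = 3 libraries here and below), Col3a1 2667 ± 76.3 in T and 2226 ± 80.5 in L, Pdgfrb 245 ± 6.59 in T and 261 ± 5.57 in L and Vim 3455 ± 111 in T and 4061 ± 70.6 in L, while the fibroblast markers Lum and Dpt were low, with 5.22 ± 1.10 in T and 4.35 ± 0.812 in L and 6.44 ± 0.292 in T and 6.41 ± 0.895 in L. Pdgfra, the PDGF receptor most used to mark fibroblasts, had 23.3 ± 1.38 in T and 7.09 ± 0.731 in L. T replicate 1 stood apart from the other T libraries: it had the lowest summed TPM of mitochondrially encoded transcripts in T and the highest of ribosomal protein genes. Among the L libraries, L replicate 2 had the highest mitochondrial and the lowest ribosomal protein sum. Results that move with these sums are given with and without T replicate 1.

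A total of 12553 genes were tested with the edgeR quasi-likelihood test, and 2019 of them (16.1%) were called at a Benjamini-Hochberg adjusted p under 0.05. Of these, 989 were higher in L (7.88% of tested genes) and 1030 lower (8.21%). Differences were mostly modest: 1014 called genes changed by under 1.5-fold, and the median absolute log2 change of the called genes was 0.58. At least 2-fold differences were called for 231 genes higher (1.84%) and 310 lower in L (2.47%). The TPM values of the 3 T and 3 L libraries did not overlap for 28.2% of all tested genes and for 1880 of the 2019 called genes. Genes named below for the largest fold or TPM difference were required to show no overlap. Lack of overlap in them is therefore not a separate result. Few of the large differences were in abundant genes: a mean TPM of 100 in the higher segment was reached by 10 of the 2-fold higher and 24 of the 2-fold lower genes. In bulk RNA of this kind, fewer cells of a type and less RNA per cell cannot be told apart, and this holds for each difference below. The plot of all tested genes shows the calls against abundance.

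**Figure D1:**
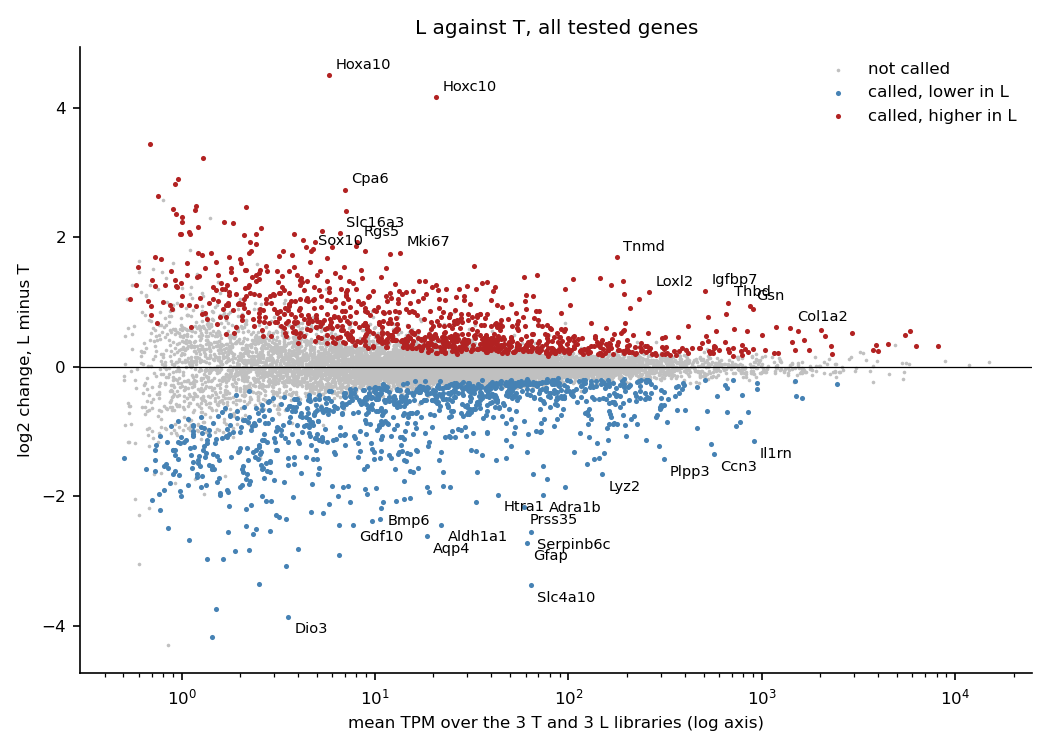
Mean TPM over the T and L libraries (log axis) against the log2 change of L minus T from edgeR, with 1 point per tested gene and called genes in colour. Genes lower in L such as Slc4a10, Gfap and Il1rn and genes higher in L such as Hoxc10, Tnmd and Igfbp7 stand clear of the grey cloud. 116 genes with a mean TPM under 0.5 or an absolute log2 change over 5 are not drawn.

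The abundant genes that were higher in L included matrix genes, a tendon marker and an anticoagulant receptor. Tenomodulin (Tnmd), a membrane protein known as a marker of tendon and ligament cells, had TPM values of 79.4, 88 and 88.2 in T and 286, 277 and 254 in L, with a log2 change of 1.69 ± 0.075, adjusted p = 6.63e-09 (± SE, edgeR, here and below). All 3 L libraries were about equally high, and the segments did not overlap. Other tendon, cartilage and bone lineage genes did not follow Tnmd as a group. In that list, 3 of 23 tested members were called higher in L and 6 lower (median log2 change -0.13). Omd, Alpl, Matn4 and Fmod were lower, with log2 changes of -1.77, -1.40, -1.31 and -0.62, while Matn3 was higher by log2 1.32. Thrombomodulin (Thbd), which turns thrombin from clotting to the activation of protein C, had 445, 460.1 and 449 in T and 899.8, 928 and 825 in L. Thbd changed by log2 0.99 ± 0.053, adjusted p = 2.93e-08. Its values were close together within each segment and did not overlap between them. Loxl2, a lysyl oxidase that cross-links collagen and elastin, had 166, 164 and 161 in T and 349, 363 and 360.1 in L. Loxl2 changed by log2 1.16 ± 0.050, adjusted p = 6.63e-09. Igfbp7, a secreted protein of vessel walls and matrix, had 321, 302 and 322 in T and 708, 683 and 713 in L. Igfbp7 changed by log2 1.17 ± 0.059, adjusted p = 1.64e-08. Neither gene's values overlapped between the segments, and for both the level in C was higher still, at a mean TPM of 786 for Loxl2 and 1241 for Igfbp7. Gelsolin (Gsn), which severs actin filaments, had 599 ± 46.5 in T and 1129 ± 43.2 in L. The gap junction protein gene Gjb2 (connexin 26) had 476 ± 5.63 in T and 824 ± 27.8 in L and its relative Gjb6 (connexin 30) 1.73 ± 0.113 in T and 5.70 ± 0.88 in L, so both were higher in L by log2 0.81 and 1.73. In C, Gjb2 was at 60.1 and Gjb6 at 0.148.

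By fold change, and leaving out genes under a mean TPM of 5 in the higher segment, the genes highest in L over T began with Hoxa10, Hoxc10 and Cpa6. Hoxc10, a posterior Hox gene, had 2.56, 1.69 and 2.45 in T and 38.4, 39.6 and 39.9 in L (log2 4.16 ± 0.18, adjusted p = 6.63e-09), while C had a mean TPM of 0.0983. Every L library exceeded every T library more than 10-fold. Cpa6, a secreted carboxypeptidase, had 1.81, 1.98 and 1.72 in T and 12.5, 12.7 and 11.1 in L. Cpa6 changed by log2 2.73 ± 0.14, adjusted p = 2.26e-08. T was the low segment for this gene, since C had a mean TPM of 9.11. Plac8 (log2 2.41, 2.27 to 11.9 TPM), the lactate exporter gene Slc16a3 (log2 2.06, 2.26 to 10.9 TPM), the protocadherin gene Pcdh1 (log2 1.87, 3.46 to 12.6 TPM) and Fgf5 (log2 1.79, 4.32 to 13.4 TPM) were highest in C, with L between C and T. Tcp11x2 (log2 2.05, 1.48 to 6.10 TPM) belongs to a family of near-identical copies on the X chromosome, so its value is uncertain.

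The genes lower in L included an ion transporter, astrocyte-type genes and secreted regulators at high levels in T. Slc4a10, which carries sodium and bicarbonate into cells and is known from the choroid plexus and arachnoid barrier, had 88.4, 138 and 123 in T and 10.1, 13.6 and 9.67 in L. Slc4a10 changed by log2 -3.37 ± 0.15, adjusted p = 6.63e-09. The 3 T values lay far above all L values, with T replicate 1 the lowest of T, and C was near 0 at 0.512. Il1rn, the secreted antagonist of the interleukin-1 receptor, had 1306, 1313 and 1177 in T and 537, 549 and 555 in L (log2 -1.15 ± 0.057, adjusted p = 1.66e-08), and its level in C was 35.6. L thus lay between T and C, and the 3 L values were within 20 TPM of each other. Plpp3, a membrane phosphatase that breaks down lysophosphatidic acid outside the cell, had 448, 468 and 449 in T and 165, 173 and 161 in L. Plpp3 changed by log2 -1.43 ± 0.051, adjusted p = 2.38e-09. Its range in L was far below that in T. Ccn3, a matricellular protein that marks dural cells, had 725, 871 and 847 in T and 326, 336 and 285 in L. Ccn3 changed by log2 -1.35 ± 0.073, adjusted p = 2.93e-08. Prss35, a secreted protein of the trypsin family, had 88.6, 100.4 and 99.5 in T and 21.7, 22.5 and 19.1 in L (log2 -2.17 ± 0.098, adjusted p = 7.37e-09), with C at 1.16. Both genes were lower in L in every pairing of libraries, and lower again in C.

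Other large differences were in genes of hormone, cytoskeleton and adhesion biology. Dio3, the enzyme that inactivates thyroid hormone, had 7.44, 7.07 and 5.35 in T and 0.622, 0.32 and 0.524 in L. Dio3 changed by log2 -3.86 ± 0.36, adjusted p = 3.91e-06. This was the largest fold among the genes lower in L that the rule on abundance kept. Adra1b, the alpha-1B adrenergic receptor that responds to noradrenaline, had 120.5, 113 and 119 in T and 28.1, 29.8 and 31.7 in L. Adra1b changed by log2 -1.98 ± 0.080, adjusted p = 4.64e-09. Coch (cochlin, a secreted matrix protein) had a mean TPM of 767 ± 73.9 in T and 331 ± 24.5 in L, Ccdc80 (a secreted matrix-bound protein) 964 ± 31.2 in T and 504 ± 25.9 in L and Dpysl3 (a cytoskeletal protein of growth cones) 1009 ± 44.7 in T and 539 ± 25.96 in L. These 3 genes were lower in L, with log2 changes of -1.19, -0.92 and -0.86. Serpinb6c (log2 -2.55, 109.7 to 18.2 TPM) and Serpinb9b (log2 -0.94, 607 to 312 TPM) were also lower in L, but these protease inhibitor genes have close copies in the mouse genome and their values are uncertain. The same limit holds for the keratin genes Krt15 (log2 -2.35, 5.83 to 1.11 TPM) and Krt75 (log2 -2.26, 9.003 to 1.82 TPM) and for Akr1c18 (log2 -2.25, 7.73 to 1.61 TPM), a steroid dehydrogenase gene.

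**Figure D2:**
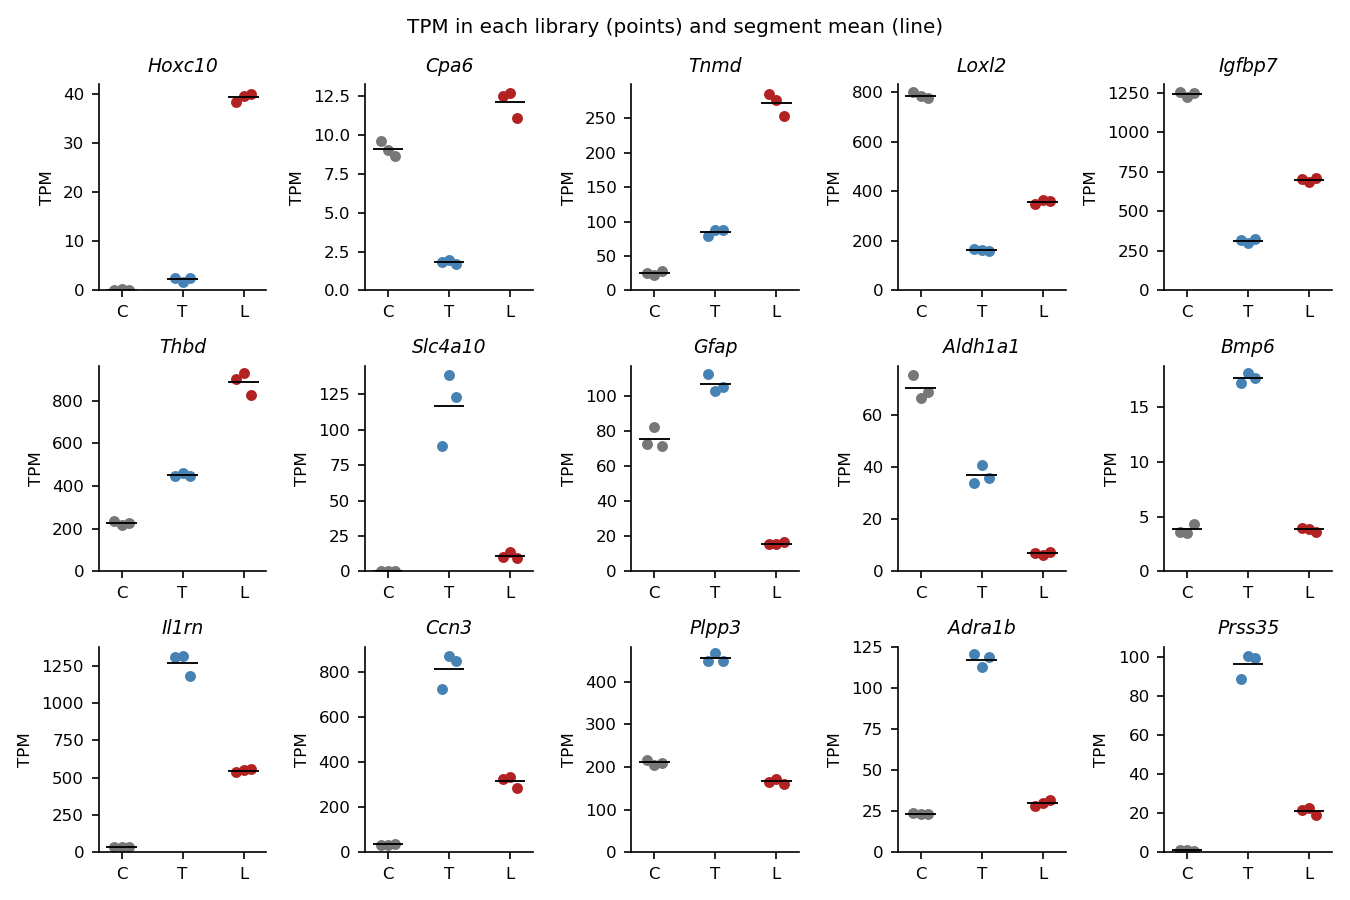
TPM of 15 genes in each library of C, T and L, with 1 point per library and a line at the mean of 3, each panel on its own linear axis from 0. No T point overlaps an L point in any panel, which was a condition for naming most of these genes. C lies above both for Loxl2, Igfbp7 and Aldh1a1 and below both for Slc4a10, Il1rn and Prss35.

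Members of the BMP, Wnt, FGF and hedgehog lists were called lower in L more often than higher, and many were not called. In the BMP and GDF list, 4 of 38 tested members were called higher in L and 18 lower (median log2 change -0.23). Over all tested genes, 7.88% were called higher and 8.21% lower, with a median of -0.0025. These overall shares apply to every list here. The lists were chosen with earlier results of these data known, so setting them beside the overall shares is description only. BMP ligands bind receptors that phosphorylate SMAD proteins, which switch on Id genes and the feedback inhibitors Smad6 and Smad7. The ligand genes Bmp6 (17.2, 18.1 and 17.7 in T and 3.94, 3.91 and 3.65 in L, log2 -2.19 ± 0.10, adjusted p = 1.07e-08) and Gdf10 (13.7, 12.4 and 12.9 in T and 2.38, 2.46 and 2.26 in L, log2 -2.44 ± 0.11, adjusted p = 7.25e-09) were lower in every L library than in any T library. Bmp4, the most abundant of the ligands that changed, had 358 ± 7.28 in T and 214 ± 4.32 in L. Bmp4 changed by log2 -0.74 ± 0.060, adjusted p = 1.22e-06. The secreted antagonists were lower as well, with Nog (noggin) at 7.40 ± 0.783 in T and 2.06 ± 1.19 in L and Bmper, which binds BMPs outside the cell, at 120.4 ± 6.22 in T and 35.4 ± 1.42 in L (log2 -1.80 and -1.73). The number called higher went from 4 to 2 without T replicate 2, T replicate 3, L replicate 3 or C replicate 1. Grem1, another antagonist, and the receptor genes Bmpr1a and Bmpr2 were not called. Of the target genes, Id4 had 4.93 ± 0.504 in T and 2.19 ± 0.523 in L. Id4 changed by log2 -1.16 ± 0.17, adjusted p = 0.000218. Id1, Id2, Smad6 and Smad9 were named after their values were seen, and were lower with log2 changes of -0.56, -0.52, -0.56 and -0.90. Id3 had a log2 change of -0.22, a call lost under 11 of 19 alternatives.

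Smad6 had TPM values of 58.4, 50.8 and 55.8 in T and 37.3, 33.3 and 39.8 in L, and the 3 L values lay below the 3 T values. Its promoter is shown because it carries the Smad palindrome GTCTAGAC, in capitals, 4 bases before the annotated start (RefSeq, GRCm38.p6, chr9:64022010-64022309, minus strand, 5′ to 3′).
Smad6: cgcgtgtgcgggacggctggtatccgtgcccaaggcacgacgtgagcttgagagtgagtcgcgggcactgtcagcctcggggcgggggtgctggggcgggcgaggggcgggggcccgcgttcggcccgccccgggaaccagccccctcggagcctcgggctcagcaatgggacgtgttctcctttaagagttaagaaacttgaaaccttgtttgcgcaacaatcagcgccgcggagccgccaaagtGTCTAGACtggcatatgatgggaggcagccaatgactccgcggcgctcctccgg
The palindrome, which reads the same on both strands, occurred in 70 of 32851 promoters of 300 bases in the RefSeq table (0.213%), and of the 14 called genes of the list with a promoter there in Smad6 alone.

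In the Wnt list of ligands, receptors and targets, 5 of 39 tested members were called higher in L and 14 lower (median log2 change -0.17). Wnt ligands bind Frizzled receptors with a co-receptor, and Axin2 and Sp5 are known targets of the beta-catenin branch. The ligand gene Wnt10a had 3.74, 2.51 and 2.49 in T and 0.473, 0.25 and 0.348 in L (log2 -2.97 ± 0.33, adjusted p = 2.43e-05), whereas Wnt10b was higher in L, at 0.316 ± 0.279 in T and 1.70 ± 0.295 in L. Wnt10b changed by log2 2.31 ± 0.42, adjusted p = 0.00173. Wnt6, an arachnoid-type ligand gene, had 60.1 ± 7.68 in T and 37.9 ± 1.08 in L (log2 -0.64). The receptor gene Fzd10 had 3.63 ± 0.367 in T and 0.658 ± 0.184 in L (log2 -2.46 ± 0.22, adjusted p = 3.11e-06) and Ror2, a receptor of the branch without beta-catenin, 11.9 ± 0.775 in T and 4.50 ± 0.557 in L. Ror2 changed by log2 -1.40 ± 0.11, adjusted p = 7.76e-07. Sp5 had 4.26, 4.09 and 4.10 in T and 0.764, 0.736 and 0.642 in L (log2 -2.51 ± 0.27, adjusted p = 1.54e-05), with the T and L values each close together. Axin2 was not called, with 8.66 ± 0.202 in T and 7.94 ± 0.764 in L and a log2 change of 0.06. Of the secreted Wnt antagonists, 1 of 10 tested members were called higher in L and 5 lower (median log2 change -0.39); Sfrp1 (log2 -0.93, 69.9 to 36.1 TPM), Wif1 (log2 -1.03, 21.3 to 10.4 TPM) and Notum (log2 -1.56, 4.04 to 1.25 TPM) were lower, and Sfrp4 (log2 0.85, 15.9 to 28.99 TPM) was the one higher.

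In the FGF list, 2 of 25 tested members were called higher in L and 9 lower (median log2 change -0.23). FGF receptors act through the ERK kinases, which induce their own inhibitors, among them the phosphatases Dusp4 and Dusp6, and the factor Etv5. The receptor gene Fgfr3 had 30.7, 34.2 and 30.8 in T and 9.90, 11.2 and 12.3 in L (log2 -1.45 ± 0.076, adjusted p = 2.27e-08), with no overlap. Dusp4 had 16.7 ± 1.29 in T and 8.43 ± 1.19 in L. Dusp4 changed by log2 -0.97 ± 0.10, adjusted p = 1.80e-05. Dusp6 and Etv5, named after their values were seen, were lower with log2 changes of -0.65 and -0.59. The ligand genes went both ways: Fgf10 had 5.72 ± 0.712 in T and 3.06 ± 0.714 in L (log2 -0.90), while Fgf5 had 2.85, 5.65 and 4.45 in T and 14.04, 12.8 and 13.4 in L. Fgf5 changed by log2 1.79 ± 0.11, adjusted p = 1.38e-07. Fgf14, the other member called higher, lost its call under 7 of 18 alternatives, among them the fits without T replicate 1, T replicate 3, C replicate 2 or any 1 L library. In the hedgehog list, 1 of 10 tested members were called higher in L and 5 lower (median log2 change -0.27), with Gas1 (a co-receptor) at 19.1 ± 0.821 in T and 8.14 ± 0.225 in L. Gas1 changed by log2 -1.21 ± 0.095, adjusted p = 9.31e-07. Ptch1, a receptor gene that is itself a target of the pathway, was the one higher, at 5.60 ± 0.985 in T and 7.10 ± 0.503 in L (log2 0.45), a call lost under 2 alternatives. In the Notch list, 1 of 13 tested members were called higher in L and 2 lower (median log2 change -0.10), all 3 by at least 2-fold. The other 10 were not called, among them Hes1 and Jag1. Over the 19 alternatives, 0 to 2 members were called higher and 1 to 3 lower. Hey1, a Notch target, was lower with 6.38 ± 1.37 in T and 2.40 ± 0.349 in L. Hey1 changed by log2 -1.40 ± 0.19, adjusted p = 0.000126.

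**Figure D3:**
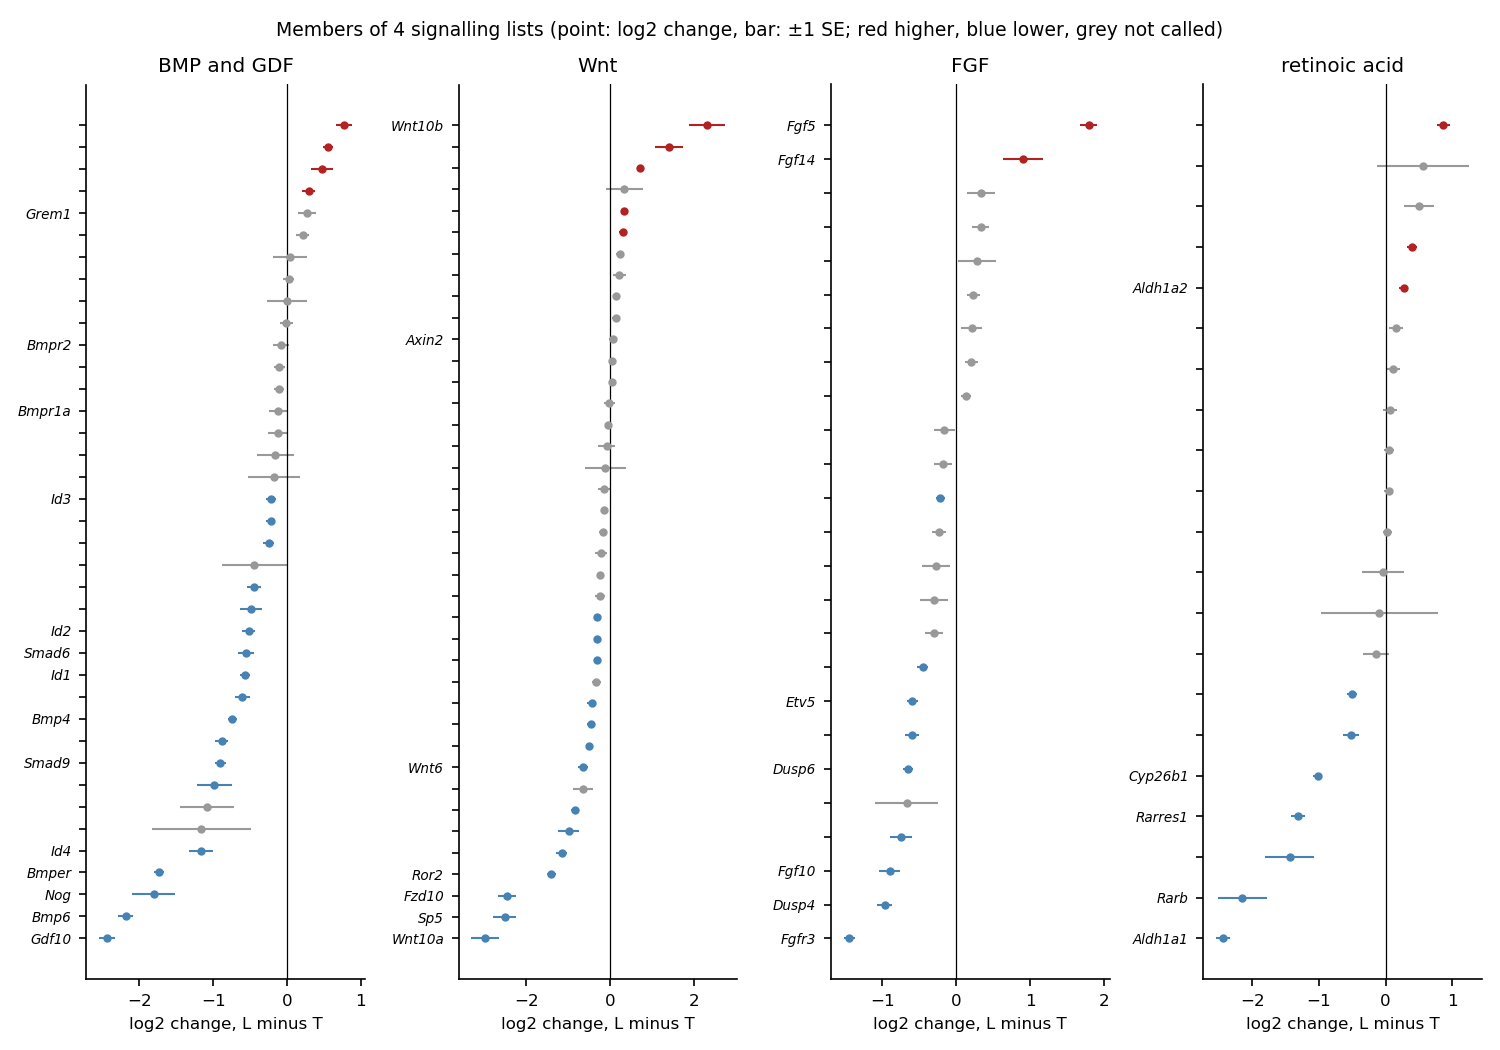
Log2 change of L minus T from edgeR, with bars of 1 SE, for tested members of the BMP and GDF (38), Wnt (39), FGF (25) and retinoic acid (21 drawn) lists, with names for genes given in the text. Members called lower in L (blue) outnumber those called higher (red) in each panel, by 18 to 4, 14 to 5, 9 to 2 and 7 to 3 of those drawn.

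Retinoic acid genes were split, with large differences on the lower side. In this list 3 of 22 tested members were called higher in L and 8 lower (median log2 change -0.002), and the sign of the median changed under 8 of 19 alternatives. Aldh1a1, which makes retinoic acid from retinaldehyde, had 33.9, 41.02 and 36.1 in T and 6.98, 6.26 and 7.62 in L (log2 -2.44 ± 0.11, adjusted p = 6.63e-09), with C highest at 70.5. Aldh1a2, the relative that makes most embryonic retinoic acid, had 27.04 ± 1.85 in T and 32.2 ± 1.26 in L, higher in L by log2 0.27. Cyp26b1, which degrades retinoic acid, had 164, 148 and 149 in T and 73.2, 76.7 and 75.5 in L. Cyp26b1 changed by log2 -1.02 ± 0.064, adjusted p = 1.20e-07. Rarres1, named for its induction by retinoids in skin, had 87.7 ± 1.43 in T and 34.9 ± 6.36 in L (log2 -1.31). Genes of both synthesis and breakdown thus appear among those lower in L.

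Rarb, a retinoic acid receptor gene that retinoic acid is known to induce, had 1.60, 2.75 and 4.19 in T and 0.3, 1.36 and 0.297 in L. Rarb changed by log2 -2.15 ± 0.37, adjusted p = 0.00109. The 3 L values were below the 3 T values, and C had a mean TPM of 5.10. Its promoter is shown for the retinoic acid response element of the DR5 type, in capitals, a repeat of 2 half-sites 5 bases apart that begins 53 bases before the annotated start (RefSeq, GRCm38.p6, chr14:16575427-16575726, minus strand, 5′ to 3′).
Rarb: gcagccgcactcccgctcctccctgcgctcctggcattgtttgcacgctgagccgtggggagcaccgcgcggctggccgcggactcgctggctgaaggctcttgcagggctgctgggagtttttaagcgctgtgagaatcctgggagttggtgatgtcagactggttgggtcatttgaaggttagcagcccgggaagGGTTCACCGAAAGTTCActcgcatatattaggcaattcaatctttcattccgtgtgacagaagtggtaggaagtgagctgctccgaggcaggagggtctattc
An element that met the same DR5 pattern on either strand was found in 32 of 32851 promoters (0.0974%).

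The TGF-beta and activin list had calls in both directions, with 8 of 25 tested members higher in L and 6 lower (median log2 change 0.02). These are 32% and 24%, beside 7.88% and 8.21% of all tested genes. Tgfb3 was higher in L with 36.7 ± 2.54 in T and 60.3 ± 1.69 in L (log2 0.73 ± 0.067, adjusted p = 3.57e-06), as was Lrrc32, which holds latent TGF-beta on the cell surface, with 32.3 ± 1.30 in T and 68.2 ± 3.06 in L. Lrrc32 changed by log2 0.97 ± 0.060, adjusted p = 1.05e-07. Ltbp2, a fibrillin-binding relative of the latent TGF-beta binding proteins, was lower with 106, 97.9 and 92.1 in T and 29.1, 30.5 and 37.3 in L. Ltbp2 changed by log2 -1.65 ± 0.068, adjusted p = 4.84e-09. Tgfbi, a known TGF-beta target, was higher by log2 0.71. In the IGF list, 10 of 17 tested members were called higher in L and 4 lower (median log2 change 0.39). The growth factor gene Igf2 had 43.98, 44.9 and 45 in T and 16.4, 18.2 and 18.99 in L (log2 -1.29 ± 0.090, adjusted p = 3.06e-07), so its L values were all under those of T. Igfbp4 was lower too, with 49.5 ± 6.81 in T and 17.02 ± 2.80 in L (log2 -1.30 ± 0.10, adjusted p = 1.03e-06), and Htra1, a secreted protease known to cut IGF binding proteins, had 73.3, 68.6 and 65.4 in T and 16.6, 15.1 and 19.99 in L. Htra1 changed by log2 -1.98 ± 0.11, adjusted p = 3.65e-08. Of the members called higher, Igfbp7 was given above. Stc2 (stanniocalcin-2), which inhibits a protease of IGF binding proteins, had 1.34 ± 0.193 in T and 2.61 ± 0.242 in L (log2 0.99 ± 0.16, adjusted p = 0.000652). Igfbp2, the most abundant binding protein gene of the list, had 3674 ± 279.6 in T and 4272 ± 209 in L (log2 0.24), a call lost under 8 of 19 alternatives. Of the PDGF and VEGF list, 7 of 21 tested members were called higher in L and 6 lower (median log2 change 0.05): Pdgfra (log2 -1.61 ± 0.089, adjusted p = 3.35e-08), Pdgfc (log2 -0.89, 166 to 87.9 TPM), Vegfc (log2 -1.14, 5.53 to 2.43 TPM) and Pgf (log2 -0.88, 232 to 124 TPM) were lower, and Angpt2 (log2 0.82, 27.6 to 47.9 TPM) was higher. Without L replicate 3, 4 members of that list were called higher.

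Calls in the contractile, fibrillar collagen and basement membrane lists were higher in L more often than lower. In the contractile and myofibroblast list, 14 of 26 tested members were called higher in L and 1 lower (median log2 change 0.30). Acta2 (smooth muscle actin) had 5051, 4479.5 and 4699 in T and 6803, 6545 and 7206 in L (log2 0.55 ± 0.061, adjusted p = 2.41e-05), and all L values were above all T values. Calponin (Cnn1), which binds actin in smooth muscle, had 109, 108 and 116 in T and 266, 273 and 279 in L. Cnn1 changed by log2 1.32 ± 0.065, adjusted p = 1.36e-08. Myh11 and Des, genes of mature smooth muscle, were low but higher in L, at 1.03 ± 0.118 in T and 3.82 ± 0.168 in L and 0.849 ± 0.227 in T and 3.38 ± 0.762 in L (log2 1.90 and 2.03). Fhl1, a LIM-domain protein, was the one lower, at 1055 ± 19.4 in T and 646 ± 21.1 in L (log2 -0.69); without T replicate 1 or L replicate 2, 3 and 2 members were called lower. The summed TPM of pericyte and smooth muscle markers, a list that shares Acta2, Myh11 and Des, was 4823 to 5408 in T and 6983 to 7648 in L. Acta2, given above, made up most of this sum. In that list, 7 of 10 tested members were called higher and 0 lower. Of its defining markers, Rgs5 had 3.11 ± 1.05 in T and 13.1 ± 1.27 in L while Kcnj8 and Abcc9 were near 0 in both segments. The part of such cells in the contractile result was not tested.

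In the list of fibrillar collagens and scar matrix, 17 of 30 tested members were called higher in L and 7 lower (median log2 change 0.25). Col1a2 had 1187, 1108 and 1078 in T and 1653, 1674 and 1724 in L (log2 0.61 ± 0.062, adjusted p = 1.10e-05), and Col1a1, named after its values were seen, was higher by log2 0.49. Col3a1, also named after its values were seen and more abundant than either, was lower, with 2713, 2709 and 2579 in T and 2256, 2286 and 2134 in L (log2 -0.26 ± 0.051, adjusted p = 0.0029). Periostin (Postn), known from scars and the periosteum, had 19.3, 27.6 and 27.6 in T and 52.5, 70.9 and 53.2 in L. Postn changed by log2 1.23 ± 0.16, adjusted p = 0.000101. Col14a1 (log2 1.10, 39.9 to 80.9 TPM), Col18a1 (log2 1.13, 122 to 265 TPM) and fibulin-1, Fbln1 (log2 1.21, 16.3 to 38.2 TPM), were all about 2-fold higher in L. The opposite held for Col8a2, a short-chain collagen gene, at 30.2, 27.6 and 30.3 in T and 7.74, 7.03 and 8.60 in L (log2 -1.85 ± 0.10, adjusted p = 2.98e-08), and for Col6a2, named after its values were seen, at log2 -0.81. In the basement membrane list, 10 of 20 tested members were called higher in L and 4 lower (median log2 change 0.20). Col4a1 and Col4a2, which wind into the main collagen IV, were higher together, with 956 ± 51.9 in T and 1420.1 ± 46.7 in L and 580.3 ± 36.7 in T and 857 ± 30.5 in L (log2 0.61 and 0.58), and Lamb1 had 31.5 ± 1.52 in T and 58.8 ± 4.01 in L. Lamb1 changed by log2 0.92 ± 0.060, adjusted p = 1.70e-07. Lama3 and Lamb3, chains of the laminin of epithelia, were low and lower in L, at 1.42 ± 0.322 in T and 0.279 ± 0.0222 in L and 1.69 ± 0.177 in T and 0.568 ± 0.103 in L.

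Crosslinking, cleavage and elastic fibre genes gave mixed calls. Of collagen crosslinking and processing genes, 9 of 26 tested members were called higher in L and 3 lower (median log2 change 0.13), with Loxl2 first; without T replicate 3, 4 were higher. Of matrix proteases and inhibitors, 15 of 32 tested members were called higher in L and 5 lower (median log2 change 0.28). Mmp13, a collagenase gene, had 4.84 ± 0.55 in T and 12.4 ± 1.45 in L (log2 1.37 ± 0.13, adjusted p = 4.97e-06), and Mmp2, a gelatinase gene named after its values were seen, 154 ± 8.04 in T and 311 ± 12.2 in L (log2 1.04). Timp3, a matrix-bound inhibitor of these enzymes, was lower with 794, 854 and 822 in T and 504, 532 and 458 in L. Timp3 changed by log2 -0.71 ± 0.057, adjusted p = 1.13e-06. Of elastic fibre genes, 4 of 18 tested members were called higher in L and 6 lower (median log2 change -0.15). Elastin (Eln) had 64.7, 58.1 and 57.8 in T and 147, 145 and 161 in L (log2 1.35 ± 0.074, adjusted p = 3.27e-08), while fibrillin-2, Fbn2, had 23.1 ± 0.955 in T and 9.42 ± 0.875 in L and Efemp1 183 ± 7.44 in T and 65.4 ± 6.21 in L (log2 -1.28 and -1.50). Of proteoglycan and hyaluronan genes, 6 of 29 tested members were called higher in L and 10 lower (median log2 change -0.10): the small leucine-rich members Prelp (log2 -1.33, 218 to 85.7 TPM), Omd (log2 -1.77, 21.9 to 6.25 TPM) and Fmod (log2 -0.62, 361 to 232 TPM) and the cell surface glypican Gpc6 (log2 -1.13, 347 to 157 TPM) were lower. In the matricellular list, 8 of 20 tested members were called higher in L and 5 lower (median log2 change -0.08), with Mgp, which keeps matrix from calcifying, at 392 ± 33.8 in T and 657 ± 49.4 in L (log2 0.77). The count of matricellular genes called lower was 3 without T replicate 3 or C replicate 2, and 8 with library totals in place of TMM.

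Adhesion genes changed member by member. Of cadherins and protocadherins, 11 of 27 tested members were called higher in L and 6 lower (median log2 change 0.18). Cdh1 (E-cadherin), the adhesion protein of arachnoid barrier cells, had 5.65, 6.06 and 6.41 in T and 1.81, 1.05 and 1.52 in L (log2 -2.02 ± 0.19, adjusted p = 3.79e-06), with every L value below every T value. Cdh11, the main cadherin of mesenchyme, had 260.3 ± 39.01 in T and 188 ± 24.1 in L (log2 -0.45). Of integrin and focal adhesion genes, 12 of 30 tested members were called higher in L and 5 lower (median log2 change 0.12), with Itga11, a collagen receptor chain, at 34.5, 32.6 and 31.4 in T and 83.1, 84.4 and 87.5 in L (log2 1.39 ± 0.068, adjusted p = 1.30e-08) and Itgb4, the laminin receptor chain of hemidesmosomes, at 17.7 ± 2.001 in T and 6.54 ± 0.962 in L. Itgb4 changed by log2 -1.41 ± 0.13, adjusted p = 4.55e-06. The integrin list had 3 members lower without L replicate 1 or L replicate 2. Of axon guidance genes, 11 of 58 tested members were called higher in L and 12 lower (median log2 change 0.01). The secreted semaphorin gene Sema3c had 156, 225 and 212 in T and 69.5, 84.04 and 65.7 in L (log2 -1.43 ± 0.13, adjusted p = 3.04e-06) and Sema3e 26.6 ± 3.53 in T and 11.7 ± 1.68 in L (log2 -1.17), while Sema4f had 4.84 ± 0.134 in T and 9.71 ± 1.58 in L (log2 1.05). Of neurotrophic genes, 6 of 20 tested members were called higher in L and 2 lower (median log2 change 0.25), and the low-affinity neurotrophin receptor gene Ngfr was higher with 17.4, 14.9 and 17.7 in T and 46.8, 46.5 and 50.9 in L. Ngfr changed by log2 1.55 ± 0.087, adjusted p = 3.73e-08. The neurotrophic list had 3 members higher without T replicate 3 or L replicate 1, and the axon guidance median was -0.0037 without L replicate 2 and -0.0047 with library totals in place of TMM.

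**Figure D4:**
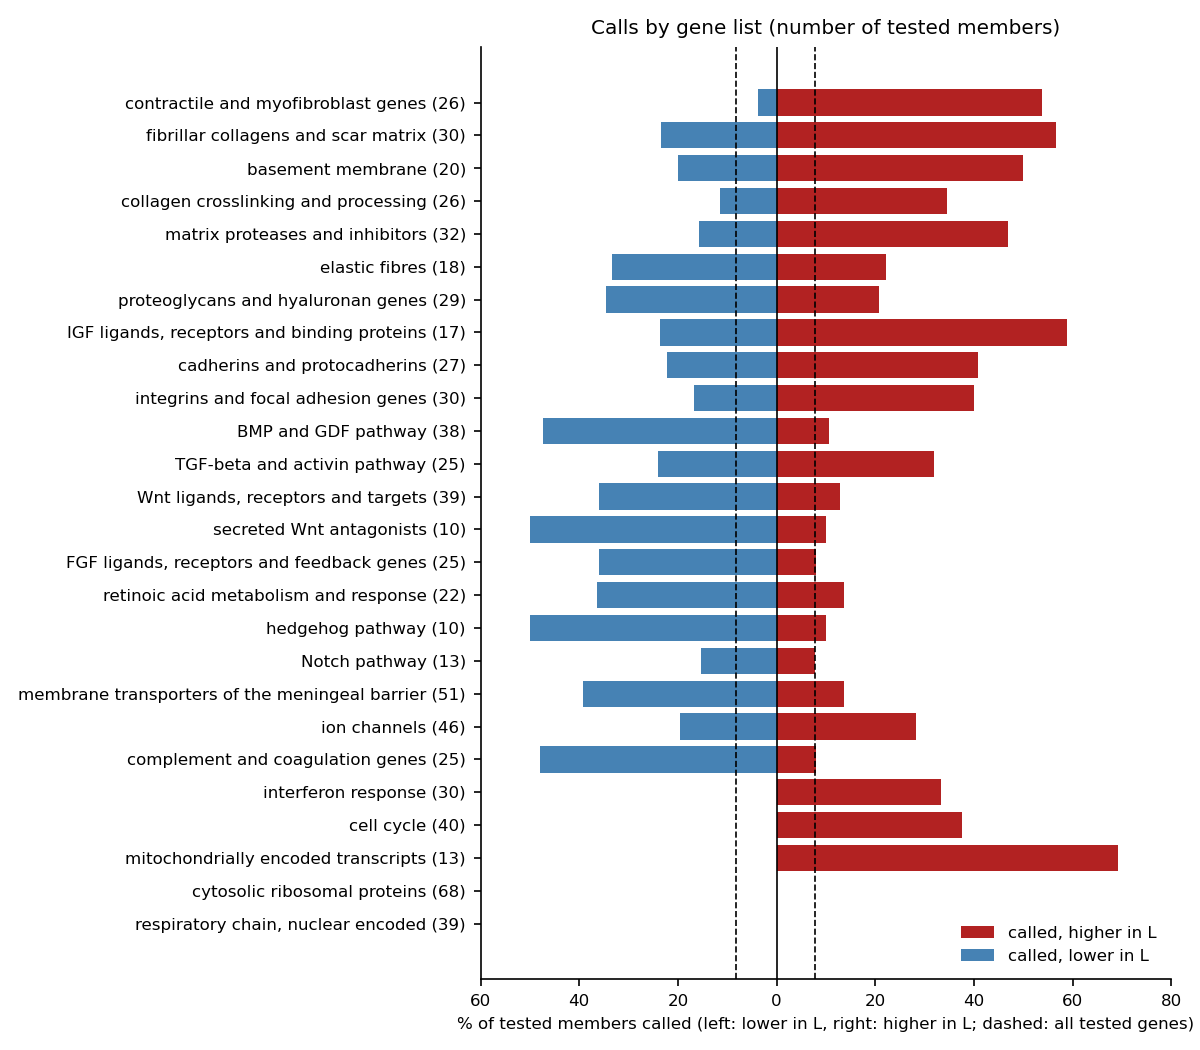
Percentage of the tested members of 26 gene lists called lower in L (left) and higher in L (right), with the number tested in parentheses and dashed lines at 8.21% and 7.88%, the shares over all tested genes. BMP, Wnt, FGF, hedgehog, transporter and complement lists reach further left, and contractile, collagen, protease, IGF and mitochondrially encoded lists further right. The lists were chosen with earlier results of these data known.

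Transporters and channels of the meningeal barrier formed a list in which 7 of 51 tested members were called higher in L and 20 lower (median log2 change -0.27). The anion exchanger gene Slc26a7 had 2.76, 5.09 and 6.05 in T and 0.48, 0.299 and 0.332 in L (log2 -3.35 ± 0.28, adjusted p = 1.61e-06), and the drug efflux pump gene Abcb1a (P-glycoprotein) 15.2, 19.9 and 18.5 in T and 2.60, 4.38 and 3.44 in L. Abcb1a changed by log2 -2.35 ± 0.15, adjusted p = 1.05e-07. Both were lower in all L libraries. The carbonic anhydrase gene Car13 had 415 ± 38.3 in T and 175 ± 11.7 in L (log2 -1.22 ± 0.067, adjusted p = 3.31e-08), and Atp1b1, a chain of the sodium pump, had 368 ± 24.7 in T and 235 ± 18.2 in L (log2 -0.63). Slc12a7 (a potassium and chloride cotransporter), Slc13a5 (a citrate carrier) and Slc16a1 (a lactate carrier), named after their values were seen, were lower with log2 changes of -1.06, -1.52 and -0.97. On the other side were Slc16a3, which exports lactate, at 2.62, 2.12 and 2.05 in T and 10.9, 9.78 and 12.2 in L (log2 2.06 ± 0.16, adjusted p = 8.69e-07), and Slc22a8, the organic anion transporter of the arachnoid barrier, at 1.92, 2.65 and 1.86 in T and 6.88, 8.18 and 7.25 in L. Slc22a8 changed by log2 1.81 ± 0.17, adjusted p = 3.69e-06. The lactate carriers Slc16a1 and Slc16a3 thus differed between segments in opposite directions.

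Of the ion channel genes, 13 of 46 tested members were called higher in L and 9 lower (median log2 change 0.14). Kcnj2, a channel that holds the resting potential, had 19.9, 25.1 and 23.1 in T and 5.38, 5.56 and 5.27 in L (log2 -2.05 ± 0.11, adjusted p = 2.28e-08), and Cacna1g, a low-voltage calcium channel, 5.11 ± 0.502 in T and 1.03 ± 0.0793 in L. Cacna1g changed by log2 -2.29 ± 0.15, adjusted p = 2.13e-07. The stretch-gated channel gene Piezo2 was lower with 384 ± 27.8 in T and 241 ± 21.1 in L. Piezo2 changed by log2 -0.59 ± 0.064, adjusted p = 1.89e-05. Its relative Piezo1 was higher, with 147 ± 9.19 in T and 175 ± 9.15 in L (log2 0.27 ± 0.073, adjusted p = 0.0226), a call lost without T replicate 2, T replicate 3 or L replicate 3. Kcnmb1, a subunit of the calcium-activated potassium channel of smooth muscle, was low but higher in L, with 0.4, 0.256 and 0.205 in T and 1.60, 1.48 and 1.49 in L. Kcnmb1 changed by log2 2.44 ± 0.24, adjusted p = 8.50e-06. Of G protein coupled receptors and peptide ligands, 12 of 66 tested members were called higher in L and 19 lower (median log2 change -0.06). Beside Adra1b, the prostaglandin D2 receptor gene Ptgdr was lower with 4.91 ± 0.0901 in T and 0.83 ± 0.248 in L. Ptgdr changed by log2 -2.53 ± 0.23, adjusted p = 3.04e-06. Adrenomedullin (Adm), a vasodilator peptide that hypoxia induces, was higher with 62.99, 72.8 and 74.4 in T and 138, 138 and 125 in L (log2 0.95 ± 0.076, adjusted p = 1.02e-06), and Ramp2, a part of its receptor, was lower with 2.67 ± 0.985 in T and 0.809 ± 0.0268 in L, a call lost under 4 alternatives. Of hypoxia and glycolysis genes, 9 of 33 tested members were called higher in L and 3 lower (median log2 change 0.14): the known hypoxia targets Egln3 (log2 -0.92, 111 to 58.02 TPM) and Ndrg1 (log2 -0.66, 446 to 278 TPM) were lower, opposite to Adm. The number of this list called higher was between 3 and 5 without T replicate 2, T replicate 3, L replicate 1 or L replicate 3.

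Called interferon genes were higher in L, and called macrophage genes and most called complement genes were lower. Of interferon response genes, 10 of 30 tested members were called higher in L and 0 lower (median log2 change 0.37), with 3 called higher without T replicate 3 and 4 without L replicate 2. Stat2, a part of the factor that interferon activates, had 9.42, 9.86 and 8.81 in T and 13.7, 15.5 and 14.9 in L (log2 0.67 ± 0.084, adjusted p = 6.63e-05), and Ifit1, which binds viral RNA, 7.004, 9.75 and 9.21 in T and 12.7, 14.8 and 12.04 in L. Ifit1 changed by log2 0.62 ± 0.13, adjusted p = 0.00498. In both, all L values exceeded all T values. Irf7 (log2 0.71, 3.62 to 6.43 TPM), Ifit3b (log2 0.55, 6.17 to 8.97 TPM), Bst2 (log2 0.49, 22.4 to 30.96 TPM) and Isg15 (log2 0.46, 19.4 to 26.1 TPM) were called with smaller or less steady differences, which were lost under 2, 2, 5 and 10 of 19 alternatives, and Ifit3b has a near-identical neighbour, Ifit3.

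The promoters of Stat2 and Ifit1 are shown because both hold the core of the interferon-stimulated response element, TTTCNNTTTC on either strand, in capitals (RefSeq, GRCm38.p6, chr10:128270248-128270547, plus strand for Stat2 and chr19:34640639-34640938, plus strand for Ifit1, 5′ to 3′).
Stat2: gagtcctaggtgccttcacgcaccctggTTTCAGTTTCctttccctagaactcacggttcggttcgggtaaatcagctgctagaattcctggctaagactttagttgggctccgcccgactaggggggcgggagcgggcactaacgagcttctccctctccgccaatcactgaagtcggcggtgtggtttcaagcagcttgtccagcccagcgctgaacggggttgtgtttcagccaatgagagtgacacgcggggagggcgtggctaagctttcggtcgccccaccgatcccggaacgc
Ifit1: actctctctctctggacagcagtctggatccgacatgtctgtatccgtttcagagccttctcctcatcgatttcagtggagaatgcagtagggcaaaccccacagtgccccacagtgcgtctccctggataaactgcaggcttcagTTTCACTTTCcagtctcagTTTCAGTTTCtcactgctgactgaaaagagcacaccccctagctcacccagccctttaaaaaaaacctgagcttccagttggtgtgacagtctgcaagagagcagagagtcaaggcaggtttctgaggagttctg
The core was present in 1131 of 32851 promoters (3.44%). It was in 8 of the 10 interferon genes called and in 4 of the 11 tested but not called that had a promoter in the table. Ifit1 held 2 copies and Stat2 held 1, with the first base of the match 104 and 222 bases before the annotated start.

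Of macrophage and microglia markers, 0 of 16 tested members were called higher in L and 11 lower (median log2 change -1.14). Their summed TPM was 369.6 to 384 in T and 159.6 to 166 in L, with no overlap, and Lyz2 made up most of the sum in T. Lyz2 (lysozyme) had 230.2, 228 and 226 in T and 73.1, 72.1 and 68.7 in L (log2 -1.66 ± 0.067, adjusted p = 4.64e-09), Csf1r, the receptor macrophages need to survive, 9.46, 10.1 and 6.18 in T and 1.39, 1.84 and 1.74 in L (log2 -1.56 ± 0.17, adjusted p = 2.36e-05) and Cd68 19.01 ± 0.871 in T and 7.56 ± 1.16 in L. Cd68 changed by log2 -1.31 ± 0.14, adjusted p = 1.47e-05. Adgre1, another macrophage marker, was less clear, at 2.79 ± 0.571 in T and 2.31 ± 1.75 in L (log2 -1.35). Its call was lost under 2 of 18 alternatives, both with limma. Ptprc, the pan-leukocyte marker, was under a TPM of 1 in both segments. Of complement and coagulation genes, 2 of 25 tested members were called higher in L and 12 lower (median log2 change -0.45); the macrophage products C1qa and C1qc are in that count, and C1qc was lower with a log2 change of -1.12. Tissue factor (F3), which starts clotting, had 65.6, 75.6 and 70.8 in T and 33.5, 30.5 and 26.2 in L (log2 -1.22 ± 0.083, adjusted p = 2.50e-07), and Gas6, a ligand for receptors of dying-cell clearance, 222 ± 11.5 in T and 120.4 ± 4.61 in L. Gas6 changed by log2 -0.86 ± 0.067, adjusted p = 7.85e-07. F3 and the anticoagulant Thbd thus differed in opposite directions. Of chemokines and cytokines, 4 of 25 tested members were called higher in L and 4 lower (median log2 change 0.06): Cxcl12, a chemokine of pial and perivascular fibroblasts, had 55.05, 54.4 and 50.4 in T and 14.7, 12.97 and 11.7 in L (log2 -2.09 ± 0.093, adjusted p = 6.63e-09), Il1rn was lower as given above, and Ccl2 (log2 1.39, 1.29 to 3.35 TPM) and Ccl7 (log2 1.10, 1.82 to 3.93 TPM) were higher, calls lost under 3 and 4 alternatives, and the number higher in this list was 2 without T replicate 3 or L replicate 1. The complement list had 1 member higher without L replicate 1 or L replicate 2. The part of macrophages in these results was not tested.

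Positional genes are given briefly. Of the tested Hox genes of paralog groups 9 to 13, 7 of 9 were called higher in L and 0 lower. Of these, Hoxa10, Hoxa11 and Hoxd10 reached a TPM of 1 in L libraries only. They passed the filter through L alone and could be called only higher. Hoxc10, Hoxc9, Hoxb9 and Hoxa9 also reached it in T. Of groups 1 to 8, 0 of 21 were higher and 14 lower. Hoxa11 and Hoxd10 had 0 counts in all T libraries and TPM values of 2.62, 2.37 and 3.43, and 2.17, 4.68 and 2.70, in L. Against a floor of 3 counts over the T libraries, Hoxa11 was at least 52.3-fold higher in L and Hoxd10 at least 45.5-fold, which covers counting error only. Outside the clusters, among developmental transcription factors, 20 of 91 tested members were called higher in L and 18 lower (median log2 change -0.008); without T replicate 3, 12 were higher. Foxf1, a forkhead factor of gut and lung mesenchyme, had 7.53, 5.98 and 7.54 in T and 0.966, 0.512 and 1.37 in L (log2 -2.81 ± 0.28, adjusted p = 8.59e-06), and Irx3, 4.74, 3.34 and 4.07 in T and 0.849, 0.337 and 0.758 in L. Irx3 changed by log2 -2.58 ± 0.26, adjusted p = 1.10e-05. Meox2, a homeobox factor of somites, had 21.9 ± 2.77 in T and 8.54 ± 0.7 in L (log2 -1.34 ± 0.11, adjusted p = 1.79e-06), while Msx2, a homeobox factor of skull mesenchyme, had 23.2, 22.4 and 20.9 in T and 54.1, 53.7 and 54.6 in L. Msx2 changed by log2 1.31 ± 0.073, adjusted p = 3.83e-08. Foxf1 and Irx3 were at 4.98 and 4.47 in C, so L had the lowest mean of the 3 segments. Klf5, Foxd2, Meis2 and Sox9, named after their values were seen, had log2 changes of -1.02, -1.30, 1.09 and -0.92.

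Zinc finger genes of the C2H2 type, as the deposited annotation groups transcription factors, were seldom called lower in L. Of 455 tested, 38 were higher (8.35%, beside 7.88% of all tested genes) and 11 lower (2.42%, beside 8.21%), and of 606 genes in all other transcription factor families 60 were higher and 70 lower. Over the 19 alternatives the counts ranged from 19 to 53 higher and from 7 to 22 lower. They were 21 and 8 without T replicate 3, 23 and 12 without L replicate 2 and 22 and 7 without L replicate 3. Without T replicate 1 they were 35 and 22, and the median log2 change of the family went from 0.037 to -0.0039. Of those called higher, 21 were at least 2-fold. Many belong to mouse clusters of close copies, and their values are uncertain. Zfp992 had 5.28, 11.6 and 10.2 in T and 19.4, 22.9 and 17.6 in L (log2 1.15 ± 0.27, adjusted p = 0.0105) and Zfp984 3.31, 5.71 and 4.66 in T and 10.8, 10.7 and 10.8 in L (log2 1.29 ± 0.20, adjusted p = 0.000441), and both were named after their values were seen. T replicate 1 was the lowest of T in each, and in C the values of Zfp992 spanned 5.59 to 13.3. Zfp292, a gene of its own outside such clusters, had 1.87, 3.90 and 3.71 in T and 7.04, 8.33 and 6.001 in L, with T replicate 1 again the lowest. Mecom, which encodes the factor EVI1, had 2.47 ± 0.357 in T and 6.73 ± 1.06 in L. Mecom changed by log2 1.61 ± 0.18, adjusted p = 2.36e-05.

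Of the cell cycle genes, 15 of 40 tested members were called higher in L and 0 lower (median log2 change 0.22), and 25 were not called. Mki67, the proliferation marker, had 3.96, 7.47 and 7.15 in T and 18.6, 23.7 and 20.1 in L. Mki67 changed by log2 1.76 ± 0.25, adjusted p = 0.000183. The kinetochore gene Cenpf had 1.24, 2.11 and 2.18 in T and 6.83, 7.01 and 5.98 in L (log2 1.96 ± 0.23, adjusted p = 4.14e-05) and its partner Cenpe 1.68, 2.94 and 3.27 in T and 9.07, 10.7 and 8.38 in L. Cenpe changed by log2 1.84 ± 0.26, adjusted p = 0.000224. In these 3 genes all L values were above all T values, and T replicate 1 was the lowest library of T. The other calls were smaller, such as Ccnb2, a mitotic cyclin, at 28.7 ± 0.592 in T and 44.4 ± 3.30 in L (log2 0.65) and Bub1, a spindle checkpoint kinase, at 8.05 ± 1.75 in T and 12.8 ± 1.59 in L (log2 0.69). Top2a, of chromosome condensation and named after its values were seen, was not called, at 42.6 ± 7.47 in T and 48.7 ± 4.52 in L (log2 0.21). Without T replicate 1, 13 of the 40 genes were called higher and 0 lower, with a median log2 change of 0.17. Of the replication-dependent histones, which lack a poly(A) tail, 0 of 23 tested members were called higher in L and 2 lower (median log2 change -0.26); both called genes, H1f2 (log2 -0.89, 295 to 157 TPM) and H2bc4 (log2 -0.46, 296 to 212 TPM), belong to a family of close copies and are uncertain.

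Mitochondrially encoded and nuclear genes of the respiratory chain gave different counts of calls. Of mitochondrially encoded genes, 9 of 13 tested members were called higher in L and 0 lower (median log2 change 0.38); of 39 nuclear-encoded respiratory chain genes 0 were called in either direction by edgeR or DESeq2 and 1 lower by limma, with 2 lower at an unadjusted p under 0.05. Of 68 ribosomal protein genes 0 were called by any of the 3 tools, with 1 lower at an unadjusted p under 0.05. The summed TPM of the 13 mitochondrially encoded genes was 44772 in T replicate 1, 57983 and 54977 in the other T libraries, and 60993, 64756 and 61025 in L, so the segments did not overlap. mt-Nd5, a subunit of complex I, had 1416, 1764 and 1754 in T and 2180.0, 2826 and 2223 in L. mt-Nd5 changed by log2 0.57 ± 0.13, adjusted p = 0.00605. Without T replicate 1, 7 of 13 were called higher, with a median log2 change of 0.37, against 0.38 with it. The count of calls was 5 without T replicate 3, 4 without L replicate 1 or L replicate 2 and 3 without L replicate 3. mt-Nd6 (log2 0.90, 629 to 1160.5 TPM) lies on the opposite strand to its neighbours, and whether the counting used strand is not given in the sources used here, so its value is uncertain. Of 4 Y chromosome genes, looked at after these values were seen, 3 were called higher in L. Ddx3y had 11.2, 21.8 and 20.2 in T and 29.7, 36.6 and 26.9 in L (log2 0.81 ± 0.22, adjusted p = 0.0199), and Eif2s3y 26.3, 35.5 and 36.7 in T and 51, 58.9 and 45.6 in L. Eif2s3y changed by log2 0.67 ± 0.13, adjusted p = 0.00263. For both, T replicate 1 was the lowest of T and L replicate 2 the highest of L. Uty had 4.59, 8.03 and 8.35 in T and 10.5, 11.6 and 9.999 in L (log2 0.68 ± 0.19, adjusted p = 0.0285), and its call was lost under 5 alternatives and that of Ddx3y under 3. Kdm5d was not called, with 6.03, 7.65 and 7.43 in T and 8.95, 10 and 5.92 in L, an adjusted p of 0.0655 in edgeR and L replicate 3 below every T library. The labels give no sex, and the part of these library differences in the cell cycle, zinc finger and mitochondrial results was not tested.

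**Figure D5:**
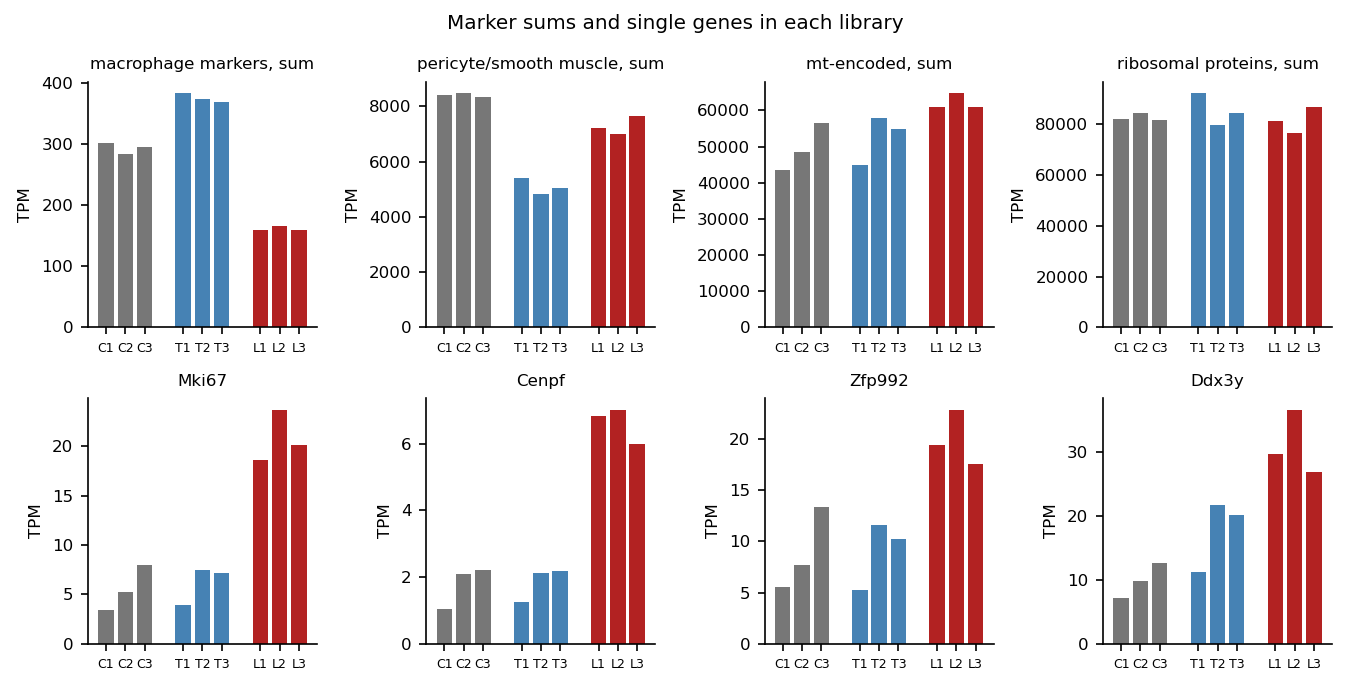
Summed TPM of 4 gene lists (upper row) and TPM of 4 single genes (lower row) in each of the 9 libraries, as bars from 0, with C in grey, T in blue and L in red. The macrophage sum is lower and the pericyte and smooth muscle sum higher in all L than in all T libraries. Acta2 makes up most of the pericyte and smooth muscle sum, and Lyz2 most of the macrophage sum in T. T1 is the lowest T library for the mitochondrially encoded sum, Mki67, Cenpf, Zfp992 and Ddx3y.

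The meningeal layers could not be separated by their markers as wholes, since each list held genes moving both ways. Of arachnoid markers, 7 of 16 tested members were called higher in L and 5 lower (median log2 change 0.17). The junction gene Cldn11 had 115, 110.1 and 107 in T and 35.4, 41.1 and 36.8 in L (log2 -1.53 ± 0.093, adjusted p = 8.32e-08), with C at 1.10, and Cdh1 and Wnt6 were lower as given above, while Slc22a8 was higher. Without L replicate 2, 4 arachnoid members were called higher. Of dura markers, 7 of 20 tested members were called higher in L and 8 lower (median log2 change -0.16), with Mgp, Gjb2 and Tnmd higher and Ccn3 lower. Of pia and perivascular markers, 8 of 22 tested members were called higher in L and 5 lower (median log2 change 0.06), with Ngfr and Postn higher and Cxcl12 and Bmp6 lower. The sign of the median turned for the arachnoid list with a TPM filter of 5 (-0.0088) and for the pia list without L replicate 2 (-0.013).

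Markers of glia also differed, in opposite directions by type. Gfap, the filament protein of astrocytes, had 112, 102 and 105 in T and 15.3, 15.4 and 16.9 in L (log2 -2.72 ± 0.092, adjusted p = 2.38e-09), and Aqp4, their water channel, 24.7, 35.8 and 34.5 in T and 5.16, 5.26 and 5.62 in L. Aqp4 changed by log2 -2.61 ± 0.14, adjusted p = 2.27e-08. The L values of both were far below the T values. In the astrocyte and ependymal list, 3 of 14 tested members were called higher in L and 7 lower (median log2 change -0.84), and the summed TPM was 3770.4 to 3953 in T and 4298 to 4422 in L, a sum that Vim and Nes dominate and fibroblasts share. Of the Schwann cell list, 11 of 15 tested members were called higher in L and 3 lower (median log2 change 1.54), with a summed TPM of 261 to 274 in T and 329 to 341 in L. Sox10, the factor that defines Schwann cells and oligodendrocytes, had 2.32, 1.41 and 2.67 in T and 7.42, 7.01 and 7.32 in L (log2 1.79 ± 0.18, adjusted p = 1.06e-05), Erbb3, the neuregulin receptor of Schwann cells, 1.25, 1.80 and 1.47 in T and 4.73, 5.70 and 5.13 in L (log2 1.79 ± 0.14, adjusted p = 6.95e-07), Cdh19 1.36, 2.71 and 1.98 in T and 7.79, 9.99 and 7.95 in L (log2 2.09 ± 0.25, adjusted p = 5.40e-05) and L1cam 2.29 ± 0.209 in T and 7.52 ± 0.901 in L (log2 1.93). All L values were above all T values for these 4 genes, and C was higher again, with Sox10 at 16.5. Gap43 and Fabp7, which immature glia also express, were lower in L, at 30.2 ± 2.46 in T and 7.72 ± 1.23 in L and 38.5 ± 5.27 in T and 20.1 ± 2.64 in L (log2 -1.93 and -0.93). Of the oligodendrocyte lineage markers, which share Sox10 with the Schwann cell list, 5 of 8 tested members were called higher in L and 1 lower (median log2 change 0.63), with a summed TPM of 109 to 123 in T and 162 to 175 in L. Myrf, a factor of myelin genes, had 30.6 ± 1.38 in T and 48.6 ± 2.51 in L (log2 0.63) and Mbp, a myelin protein gene, 1.54 ± 0.835 in T and 3.51 ± 0.752 in L (log2 1.35). Of the neuronal markers, 3 of 7 tested members were called higher in L and 1 lower (median log2 change 0.27), with a summed TPM of 130.1 to 146 in T and 162 to 177 in L. Tubb3 (log2 1.18, 8.34 to 18.3 TPM), Uchl1 (log2 0.85, 50.9 to 90.4 TPM) and Stmn2 (log2 0.74, 13.5 to 22.2 TPM) were higher, and Gap43, which is on this list too, was lower. Of the endothelial markers, 3 of 7 tested members were called higher in L and 0 lower (median log2 change 0.35), with a summed TPM of 53.5 to 54.8 in T and 68.7 to 71.2 in L. Of the defining markers, the oligodendrocyte genes Mog and Mag, the neuronal genes Rbfox3 and Snap25 and the lymphocyte gene Cd3e were at or near 0 in T and L, as were the endothelial marker Pecam1 and the epithelial markers Epcam and Krt14. Cdh5, another endothelial marker, had 43.1 ± 0.464 in T and 54.1 ± 2.05 in L (log2 0.35). The part of glial, neuronal and endothelial cells in these results was not tested.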

How the data were processed

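Each gene has an estimated count and a TPM per library in the table that the authors deposited. The estimated counts deposited are whole numbers in 92.7% of cells and were rounded before testing, a case the written design, made for counts, did not name. The TPM values deposited by the authors served for the filter, the levels in the text and limma. The submitters' processing notes list DESeq2 1.32.0, StringTie 2.1.4, HISAT2 2.2.1, Trimmomatic 0.39 and FastQC 0.11.9 without a role or order, beside a human and a mouse genome build. For the annotation and the use of strand, the answer is not given in the sources used here. Groups follow the titles, also for L replicate 3, whose description points to a column of L replicate 2.

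Genes that reached a TPM of 1 in 3 or more of the 9 libraries were fitted together in edgeR 4.0.16 (R 4.3.3) by the quasi-likelihood model with TMM scaling, the segment as the only term and the two-sided contrast L minus T. Benjamini-Hochberg adjustment ran over the 12553 tested genes at a threshold of 0.05. The procedure was tested on simulated data. The 19 alternatives used other samples, scalings, filters, DESeq2 1.42.0, limma 3.58.1 on log2(TPM + 1) or log2(TPM + 0.1), a replicate block, or left out 1 library each. No 2 libraries of a segment agreed within sampling noise, the chi-square of their counts being 3.78 to 20.9 times its degrees of freedom. Fold changes come from counts, so they can differ from ratios of TPM means. A gene at 0 counts in a segment has its fold bounded by a floor of 3 counts.

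The members and the 62 gene lists were chosen with earlier results of these data known. Genes were named by rule: per direction the 20 called genes with the largest log2 change (mean TPM of at least 5, no overlap), the 10 with the largest TPM difference at 1.5-fold or more, and for each list up to 5 called members and 2 abundant others. Predicted genes and pseudogenes were left out. A few named genes have no value reported here. Fibroblast and cell type markers, Axin2, Aldh1a2, the receptor genes Bmpr1a and Bmpr2 and Grem1 were added as context. Promoters of 300 bases are from RefSeq (GRCm38.p6), a build that may differ from the authors'.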

Additional observations from a re-analysis of the deposited data

How the results depend on the processing

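The 2019 calls between L and T ranged from 1630 to 2106 under the alternatives that kept all libraries of T and L, and from 1412 to 2437 when 1 library was left out, with the lowest count without T replicate 3 and the highest without T replicate 1. The genes higher in L numbered 989 and, leaving out 1 library, 657 to 1190, with 657 without T replicate 3. A stricter filter, a TPM of at least 5, left 136 genes at least 2-fold higher and 168 lower, since fewer genes were tested, and limma on log2(TPM + 1) gave 123 and 183, where the pseudocount shrinks changes of low genes. The split between higher and lower calls stayed within 45.0% to 51.4% higher. With the replicate number as a block the fit gave 1892 calls (947 higher, 945 lower). Correlations of T and L libraries of the same number, taken after subtracting segment means, were -0.030, 0.29 and -0.13. With the other L libraries, T replicate 1 had -0.35 and 0.38, T replicate 2 -0.33 and 0.033, and T replicate 3 0.0020 and 0.12. Only for number 2 was the same-number value the highest. With 3 libraries per segment, these values cannot decide if the numbers pair the samples. Of 331 called genes followed by name, 281 kept their call under every alternative, 50 lost it under at least 1, and 0 changed sign. Calls in only 1 direction were found in the Hox, interferon, cell cycle, mitochondrially encoded, macrophage, pericyte, histone, endothelial, epithelial and lymphocyte and mast cell lists. In the direction without calls, 0 of their members had an unadjusted p under 0.05 in edgeR and 0 were called by DESeq2. There, limma called 1 interferon gene lower and 1 histone gene higher, and 1 lymphocyte and mast cell marker was called higher without T replicate 1. In the Hox list, Hoxa10, Hoxa11 and Hoxd10 passed the filter through L alone, so only a higher call was possible for them. With 3 libraries per segment and 15652558 to 20282559 counts each, differences of genes with few counts were limited by depth, and a missed threshold does not show equal expression.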

Other observations

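Metabolic and stress groups are set beside the 16.1% of all tested genes that were called, 7.88% higher and 8.21% lower in L. Of antioxidant and glutathione genes, 2 of 37 tested members were called higher in L and 8 lower (median log2 change -0.07): Nqo1, a quinone reductase known as a target of NRF2, had TPM values of 91.05, 80.8 and 78.7 in T and 38.8, 39.4 and 41.8 in L (log2 -1.04 ± 0.083, adjusted p = 1.03e-06, edgeR), and the glutathione transferase gene Gsta4 209 ± 3.45 in T and 107 ± 2.04 in L (± SD, n = 3; log2 -0.95). The L values of Nqo1 did not overlap those of T. The number called higher in that list was 4 without T replicate 1 and 0 without T replicate 2, T replicate 3, L replicate 2 or L replicate 3. Of imprinted growth regulators, 3 of 19 tested members were called higher in L and 3 lower (median log2 change -0.05); Mest was higher with 10.5, 10.4 and 10.5 in T and 25.8, 28.3 and 23.7 in L (log2 1.32 ± 0.094, adjusted p = 3.27e-07), opposite to Igf2. Of immediate early genes, 7 of 29 tested members were called higher in L and 3 lower (median log2 change 0.06), and without T replicate 3 only 2 were higher; the ERK phosphatase gene Dusp1 was lower with 158 ± 4.51 in T and 98.7 ± 1.33 in L (log2 -0.66 ± 0.059, adjusted p = 3.04e-06) and Socs3, an inhibitor of cytokine signalling, was higher with 42.5 ± 2.04 in T and 66.5 ± 1.23 in L. Socs3 changed by log2 0.67 ± 0.073, adjusted p = 2.04e-05.

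Of unfolded protein and amino acid stress genes, 8 of 36 tested members were called higher in L and 3 lower (median log2 change 0.16). Without T replicate 1, 12 were higher and 4 lower, and without T replicate 3 or L replicate 1, 3 were higher. The chaperone genes Hspa5, Hsp90b1 and Pdia3 lost their calls under 5, 7 and 5 of 19 alternatives. Of sterol and fatty acid synthesis genes, 1 of 34 tested members were called higher in L and 2 lower (median log2 change 0.07), with 5 higher without T replicate 1 and 2 without L replicate 3. Adipocyte markers had a summed TPM of 27.3 to 35.1 in T and 19.2 to 19.5 in L, with Plin1 listed at 0 in all T and L libraries, and skeletal muscle markers 21.7 to 30.2 in T and 29.1 to 36.9 in L, with Ckm at 0. The epithelial markers had 72.4 to 79.99 in T and 33.9 to 43.8 in L, of which Krt19, at 61.8 ± 4.66 in T and 33.3 ± 4.46 in L (log2 -0.87 ± 0.11, adjusted p = 9.13e-05), made up the largest share.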
